A study of Arabidopsis thaliana with 16 samples.

Results

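Transcripts of 6 nuclear genes that encode proteins of the chloroplast were followed in shoots and roots of Arabidopsis thaliana. RCA, SBPASE and PRK belong to the Calvin cycle, and PSAN, PSAE1 and LHCB4.1 to the photosystems and their light-harvesting antenna. They were chosen by name, with earlier results of these arrays known: each is the gene that the platform annotation gives as the single gene of a probe set, and each had 1 such probe set, so they make up 6 of the 13356 genes that 13513 such probe sets stand for, out of 22810 probe sets on the array. RCA (AT2G39730, chromosome 2, probe set 245061_at) encodes Rubisco activase, which frees the active sites of Rubisco from inhibitory sugar phosphates. SBPASE (AT3G55800, chromosome 3, 251762_at) encodes sedoheptulose-bisphosphatase, an enzyme of the phase that regenerates the acceptor of CO2. PRK (AT1G32060, chromosome 1, 255720_at) encodes phosphoribulokinase, which makes that acceptor, ribulose bisphosphate. PSAN (AT5G64040, chromosome 5, 247320_at) encodes a subunit of photosystem I on the lumen side of the thylakoid membrane, where plastocyanin docks. PSAE1 (AT4G28750, chromosome 4, 253738_at, written PSAE-1 in the annotation) encodes a photosystem I subunit on the stroma side, near the site where ferredoxin docks; whether its probe set also detects the paralog PSAE2 was not examined. LHCB4.1 (AT5G01530, chromosome 5, 251082_at) encodes CP29, a minor antenna protein of photosystem II.

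Photosystem II and photosystem I pass electrons from water to ferredoxin in the thylakoid membrane, and the Calvin cycle in the stroma spends the ATP and reducing power gained there to fix CO2. The proteins of both are made from a mixture of plastid-encoded and nuclear-encoded subunits; the nuclear transcripts are translated in the cytosol and the products imported into the chloroplast. Such nuclear genes are known to be among the most strongly transcribed genes of green tissue and to be controlled by light, sugars and signals from the plastid, while roots hold mostly non-green plastids.

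Signals came from 16 one-colour Affymetrix ATH1 arrays in 8 groups, and with only 2 arrays a group every value below has limited precision. In the 7-week experiment, wild-type (WT) plants in hydroponic culture had 4 weeks of control medium and then 3 weeks of either control or zinc (Zn)-deficient medium, which gave 7-week control shoots, 7-week Zn-deficient shoots and the roots of both. In the 21-day experiment, WT and hma2 hma4 plants stood on agar-solidified control medium, moved at 7 days to vertical plates for 14 more days, which gave 21-day wild-type shoots, 21-day hma2 hma4 shoots and the roots of both. The mutant lacks HMA2 and HMA4, P-type ATPase pumps known to load Zn into the root xylem for transport to the shoot; its alleles were not stated in the labels, and every 21-day group had control medium. No label gives the number of plants per array or says that replicates came from separate cultures, so p-values measure only the spread between these arrays, which may be technical.

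Signals are MAS5 values that the authors had scaled to a common trimmed mean of 500 on each array, and replicate arrays correlated with r from 0.951 to 0.977 across probe sets. The tissue labels were checked against marker genes that have no role in photosynthesis, of which 2 of 13 for roots and 1 of 9 for leaves had a probe set of their own. The root hair expansins EXPA7 and EXPA18 had higher signals in roots than in shoots in all 4 pairs of groups (limma adjusted p from 2.74e-05 to 0.00462). FAMA, a guard cell transcription factor of the leaf epidermis, was higher in shoots in the 21-day WT and hma2 hma4 groups (limma adjusted p of 1.32e-05 and 0.000534) and did not pass in the 7-week pairs (adjusted p of 0.0669 and 0.0682). The genotype of the hma2 hma4 arrays was not checked, since neither pump gene has a probe set paired with it alone. One array of a group central here stood apart: for replicate 1 of the 7-week Zn-deficient shoots, the actin control had an 8.57-fold higher signal at its 3' than at its 5' end, where the remaining 7-week shoot arrays had values of 2.70, 2.36 and 1.74. The GAPDH control did not show this: its 3' to 5' ratio was 0.797 on that array and 1.49, 0.980 and 0.856 on the others. That array also had 243 probe sets at the lowest value, the most of all 16. Its highest signal was 27537.5, against 35836, 33136 and 33100 on the other 7-week shoot arrays.

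All 6 genes had bright probe sets on every shoot array, where brightness ranks the signals of an array and does not compare transcript amounts between genes. Their 48 shoot signals lay between 4001 and 26648, all above 52.2, the highest signal of the Trpn controls, which stand for genes that plants do not have and served as the background level. The lowest placed of them was still within the brightest 3.94% of probe sets, and within the brightest 0.554% on the 21-day arrays. The brightest member on each shoot array reached 65.3% to 75.7% of the highest signal of that array. How far saturation of the scanner or of the probes compresses differences at that height was not tested, since only processed signals were used.

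**Figure D1:**
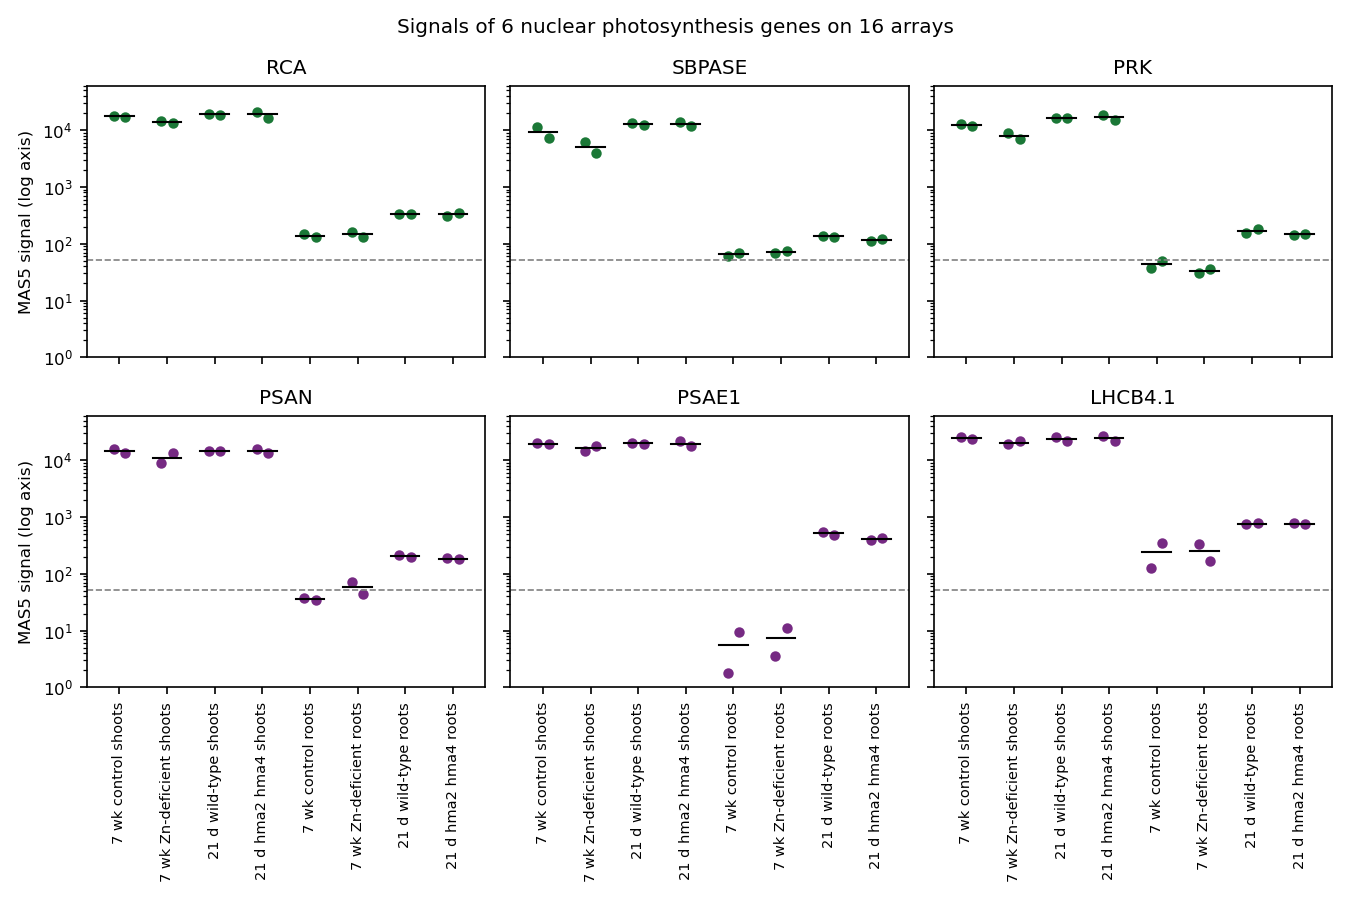
Signals of the 6 genes on all 16 arrays (log axis, MAS5 signal units), 1 panel per gene, with 1 point per array, a line at the mean of each group and a dashed line at the background level of 52.2. Shoot signals lie between 4001 and 26648; root signals reach 781.3 at most, and those of 7-week roots are the lowest.

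Among the Calvin cycle genes, the Zn-deficient shoots gave the lowest signals. SBPASE had signals of 11595 and 7352 in 7-week control shoots, 6191 and 4001 in Zn-deficient shoots, 13525 and 12397 in 21-day wild-type shoots, and 13744 and 11843 in hma2 hma4 shoots. Both Zn-deficient arrays lay below all 6 other shoot arrays, and the 2 control arrays differed among themselves by more than those of any 21-day group. PRK had signals of 12938 and 12042 in 7-week control, 8853 and 7083 in Zn-deficient, 16193 and 16346 in 21-day wild-type, and 18383 and 15211 in hma2 hma4 shoots. Here too the Zn-deficient arrays were the lowest, and the 7-week control arrays lay below all 4 of the 21-day arrays. RCA had signals of 18061 and 17279 in 7-week control, 14405 and 13577 in Zn-deficient, 19465.5 and 18774 in 21-day wild-type, and 21278 and 16708 in hma2 hma4 shoots. Its Zn-deficient arrays were again the lowest, while the hma2 hma4 arrays enclosed those of both groups of WT plants on control medium.

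The photosystem and antenna genes varied less from group to group in shoots than SBPASE and PRK, though PSAN varied about as much as RCA. Their 2 Zn-deficient arrays ran the other way from those of the Calvin cycle genes. PSAN had signals of 15982.5 and 13728 in 7-week control, 8964 and 13284 in Zn-deficient, 14853 and 14580.5 in 21-day wild-type, and 16098 and 13244 in hma2 hma4 shoots. Its Zn-deficient replicate 2 lay within the range of the hma2 hma4 arrays, and replicate 1 below all other shoot arrays. PSAE1 had signals of 19968 and 19514 in 7-week control, 14456 and 17893 in Zn-deficient, 19931 and 19678 in 21-day wild-type, and 21614 and 17576 in hma2 hma4 shoots. LHCB4.1 had signals of 25397 and 23275 in 7-week control, 19489 and 21606 in Zn-deficient, 25956 and 21609.8 in 21-day wild-type, and 26648 and 22261.5 in hma2 hma4 shoots. For both, Zn-deficient replicate 1 had the lowest signal of the shoot arrays, and replicate 2 lay beside the lower array of a 21-day group. By rank from the brightest probe set, RCA stood at 58 on Zn-deficient replicate 1 against 75 and 73 on the 7-week control arrays. LHCB4.1 stood at 22 against 20 and 25, and SBPASE at 378 against 194 and 419. PRK stood at 208 against 149 and 174, PSAN at 197 against 110 and 131, and PSAE1 at 57 against 49 and 46. The part of that array's lower highest signal in these values was not tested.

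Zn deficiency gave lower mean signals of all 6 genes in shoots, and none of the 6 changes passed the test. The mean of SBPASE was 5096 ± 1549 (SD, n = 2) against 9474 ± 3000.1 in control shoots, that of PRK 7968 ± 1251 against 12490.1 ± 633, and that of RCA 13991 ± 586 against 17669.9 ± 553. On the log2 scale after adding 8 signal units, which is the scale of every log2 value here, the change was -0.89 for SBPASE (SE 0.313, 95% interval -1.60 to -0.18), -0.66 for PRK (SE 0.251, -1.23 to -0.09) and -0.34 for RCA (SE 0.220, -0.84 to 0.16). With limma on 17059 probe sets and Benjamini-Hochberg adjustment, the adjusted p was 0.207 for SBPASE, 0.236 for PRK and 0.489 for RCA, against a threshold of 0.05. The unadjusted p of SBPASE (0.0199) and PRK (0.0287) lay below 0.05, as did those of 2849 of the 17059 probe sets. Less RNA per cell and fewer cells of a green type cannot be told apart in whole shoots.

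Of the photosystem and antenna genes, PSAE1 and LHCB4.1 had smaller estimated changes than any Calvin cycle gene. That of PSAN was larger than that of RCA but smaller than those of SBPASE and PRK. The change was -0.44 for PSAN (SE 0.304, 95% interval -1.13 to 0.25, limma adjusted p = 0.515), from 14855 ± 1594 to 11124 ± 3055 (SD, n = 2 in each group). It was -0.30 for PSAE1 (SE 0.352, -1.10 to 0.51, limma adjusted p = 0.729) and -0.24 for LHCB4.1 (SE 0.445, -1.26 to 0.77, limma adjusted p = 0.829). These intervals include both no change and a fall by more than 1 on the log2 scale. The order of the genes rested on single arrays. Without Zn-deficient replicate 2 the change was -0.29 for RCA, -0.45 for PSAE1 and -0.32 for LHCB4.1. Without Zn-deficient replicate 1 it was -0.38 for RCA and -0.16 for PSAN. Quantile normalization shrank the changes of all 6 genes, to -0.11 for RCA, -0.20 for PSAN, -0.0553 for PSAE1 and -0.0591 for LHCB4.1, and to -0.67 for SBPASE and -0.45 for PRK.

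Of the 6 genes, 0 were called, where 0.92% of all probe sets tested were called in either direction and 0.152% as lower. Both Zn-deficient arrays lay below both control arrays for 6 of 6 genes, and for 21% of all probe sets. All 6 changes were below 0, as were 51.7% of all, with a median of -0.39 against -0.02 over all probe sets tested. Ranked among the changes of all probe sets, SBPASE had 5.19% of them below it, PRK 10.8%, PSAN 19.7%, RCA 26.0%, PSAE1 28.7% and LHCB4.1 32.5%. Because of how the members were chosen, their common direction is a description and carries no test.

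The SBPASE and PRK results rest on how the spread is estimated and on single arrays. In 1 fit of all 16 arrays, whose spread includes the 21-day groups, SBPASE and PRK had limma adjusted p of 0.0357 and 0.0478. There 2 of 6 genes were called, but calls over all probe sets rose as well. That fit called 1440 of 17059 probe sets, 547 of them lower, against 157 and 26 in the fit reported above. Without control shoot replicate 1 the change of SBPASE was -0.56 (limma adjusted p = 0.628), without control replicate 2 it was -1.22 (0.132), without Zn-deficient replicate 1 it was -1.21 (0.128) and without Zn-deficient replicate 2 it was -0.58 (0.336). PRK ranged from -0.82 to -0.50 over the same 4 omissions. PSAN was -0.16 without the Zn-deficient array of uneven actin signal, replicate 1, and -0.72 without replicate 2.

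**Figure D2:**
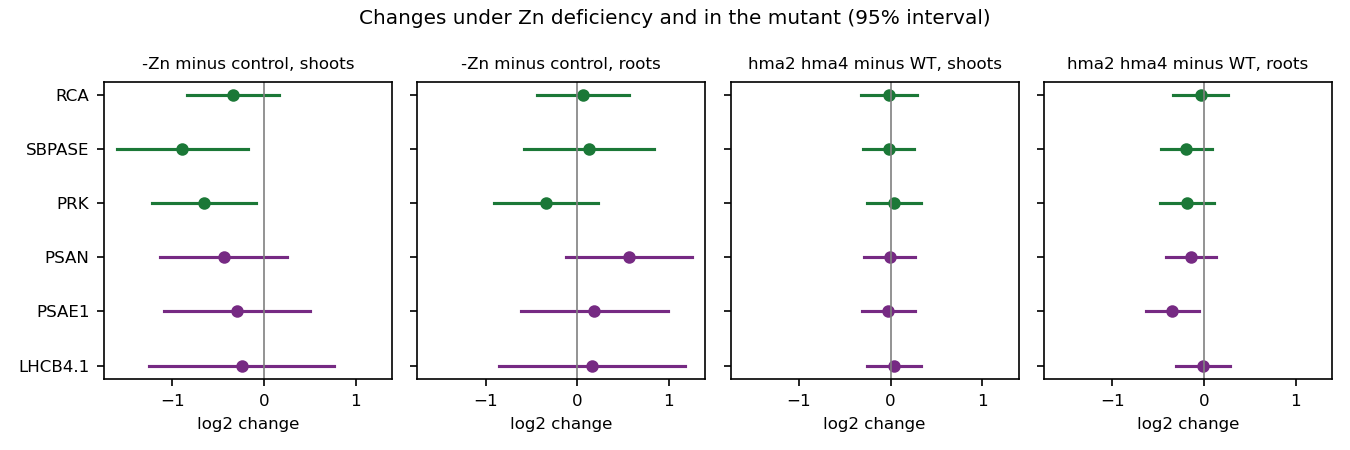
Log2 changes of the 6 genes (x axis, points, with 95% intervals as bars) for Zn-deficient minus control and for hma2 hma4 minus WT, in shoots and roots; Calvin cycle genes are green and photosystem and antenna genes purple. In Zn-deficient shoots the points run from -0.89 for SBPASE to -0.24 for LHCB4.1, whereas in hma2 hma4 shoots all lie between -0.02 and 0.04.

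The Calvin cycle genes were set against the photosystem and antenna genes by their mean change. Under Zn deficiency in shoots the means were -0.63 for the 3 Calvin cycle genes and -0.33 for the 3 others, a difference of -0.30, smaller than its SD between replicates of 0.351. On each array the mean of the Calvin cycle genes minus that of the others, both centred over the 8 shoot arrays, was -0.02 and -0.17 in control and -0.05 and -0.74 in Zn-deficient shoots. The groups overlapped: Zn-deficient replicate 1 lay between the control arrays, and the low score came from replicate 2 alone. Without Zn-deficient replicate 1 the difference was -0.64, and without replicate 2 it was 0.04. A distinction between both groups of genes under Zn deficiency was therefore not detectable with 2 arrays a group.

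The 2 Zn-deficient shoot arrays differed in opposite directions for both groups of genes. From replicate 1 to replicate 2, SBPASE differed by -0.63, PRK by -0.32 and RCA by -0.09 on the log2 scale, whereas PSAN differed by 0.57, PSAE1 by 0.31 and LHCB4.1 by 0.15. In control shoots all 6 differences had the same sign, from -0.66 for SBPASE to -0.03 for PSAE1. Replicate 1 of the Zn-deficient shoots is also the one whose actin signals differed 8.57-fold between the ends of the transcript. Its GAPDH control had a 3' to 5' ratio of 0.797 and did not stand apart in that way. The part of that array's RNA quality in the gap was not tested.

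**Figure D3:**
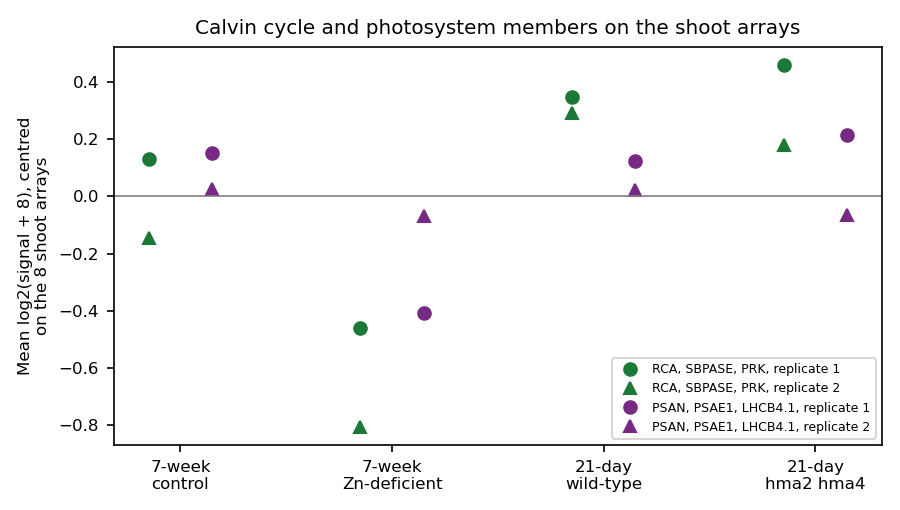
Mean log2(signal + 8) of the Calvin cycle genes (green) and of the photosystem and antenna genes (purple) on each shoot array, centred over the 8 shoot arrays (y axis), by group (x axis); circles are replicate 1 and triangles replicate 2. The Zn-deficient Calvin cycle means are -0.46 and -0.81, and those of the photosystem and antenna genes are -0.41 and -0.07.

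Other genes of photosynthesis also had lower mean signals in Zn-deficient shoots, and none passed the test. Lists of 122 loci of the photosystems, antenna, electron transport, Calvin cycle, photorespiration and chlorophyll synthesis, with regulators and senescence genes, held 16 genes besides the 6 that had a probe set of their own; the lists of regulators and of senescence and chlorophyll breakdown had none. Of these 16, 0 were called, 16 had changes below 0 and 14 had both Zn-deficient arrays below both control arrays, with a median change of -0.37. The shares over all probe sets tested were 0.92% called, 51.7% below 0 and 21% with both arrays below. The lowest was CHLI2, a subunit of magnesium chelatase in chlorophyll synthesis, with mean signals of 591 against 1343 in control shoots and a change of -1.21 (limma adjusted p = 0.223). GDCT, the T protein of the glycine decarboxylase complex of photorespiration, had a change of -0.99 (limma adjusted p = 0.202). With the members included, the list of photorespiration had a median of -0.72 over 3 genes, that of the Calvin cycle -0.50 over 4, that of chlorophyll synthesis -0.36 over 6, and those of photosystem I, photosystem II and the antenna between -0.37 and -0.28. The Calvin cycle list was the 3 members and PGK2, whose mean signals were 4846 against 5916 in control shoots. The photosystem I list was PSAN and PSAE1 alone, so both medians largely restate the members. In the list of electron transport and ATP synthase, PETM had means of 16290 against 19761 and ATPC1 of 11480 against 16340. LHCB4.2 and LHCB4.3, paralogs of LHCB4.1, had changes of -0.28 and -0.57.

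**Figure D4:**
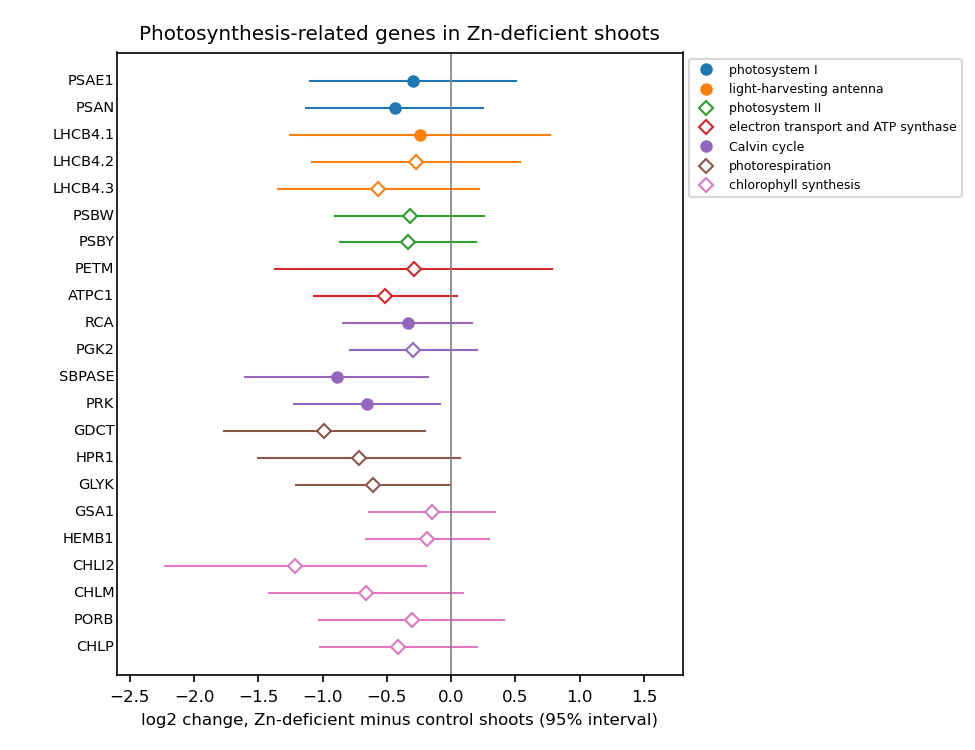
Log2 changes in Zn-deficient minus control shoots (x axis, with 95% intervals) of the 6 genes, filled, and of the 16 other photosynthesis genes, open, coloured by list. All 22 points lie below 0, from -1.21 for CHLI2 to -0.15 for GSA1, and 0 of them passed the adjusted threshold.

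In roots the Calvin cycle genes had low signals, and the Zn-deficient and control arrays overlapped for RCA and SBPASE but not for PRK. RCA had signals of 150.2 and 129 in 7-week control roots, 160.0 and 133 in Zn-deficient roots, 335.1 and 336.8 in 21-day wild-type roots, and 303.1 and 353.4 in hma2 hma4 roots. SBPASE had signals of 60.6 and 69.3 in 7-week control, 68.0 and 75.4 in Zn-deficient, 139.5 and 130.3 in 21-day wild-type, and 113.5 and 120.8 in hma2 hma4 roots. For both genes the 4 arrays of the 7-week experiment were below the 4 of the 21-day experiment. PRK had signals of 38.1 and 49.9 in 7-week control, 30.2 and 35.4 in Zn-deficient, 154.0 and 184.5 in 21-day wild-type, and 144.7 and 149.5 in hma2 hma4 roots, so that its Zn-deficient arrays lay below its control arrays and all 4 of these signals were below the background level.

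The photosystem and antenna genes had the widest range in roots. PSAE1 had signals of 1.77 and 9.43 in 7-week control, 3.65 and 11.0 in Zn-deficient, 549.7 and 482.4 in 21-day wild-type, and 387.1 and 421.4 in hma2 hma4 roots. It was far below background on all 4 of the 7-week arrays and well above it on all 4 of the 21-day arrays. PSAN had signals of 37.7 and 34.4 in 7-week control, 73.2 and 44.0 in Zn-deficient, 212.4 and 198.9 in 21-day wild-type, and 189.4 and 182.6 in hma2 hma4 roots. LHCB4.1 had signals of 129.2 and 347.7 in 7-week control, 332.4 and 171.7 in Zn-deficient, 752.7 and 781.3 in 21-day wild-type, and 777.5 and 748.4 in hma2 hma4 roots. LHCB4.1 was above background on every root array, with wide gaps between the replicates of both 7-week groups. Over the 6 genes, 13 of 24 signals of 7-week roots and 24 of 24 of 21-day roots exceeded background. Most probe sets exceed that level: a signal of 52.1 stood within the brightest 72.0% on 7-week control root replicate 2. On hma2 hma4 root replicate 2 a signal of 55.2 stood within the brightest 71.3%.

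Zn deficiency changed none of the 6 genes past the threshold in roots. The changes were 0.06 for RCA, 0.13 for SBPASE, -0.34 for PRK, 0.56 for PSAN, 0.19 for PSAE1 and 0.16 for LHCB4.1, each with a limma adjusted p of 1. Of the 6 genes 0 were called, where 0.106% of all probe sets were called. For PRK and PSAE1 both groups lay below background, so these values are differences within background, and for PSAN only Zn-deficient replicate 1 was above it. The difference of the response between shoots and roots was tested as an interaction and passed for 0 of the 6 genes, with 0.0117% of all probe sets called. It was largest for SBPASE, at -1.02 (SE 0.443, limma adjusted p = 0.556), and PSAN, at -1.005 (SE 0.430, limma adjusted p = 0.550), a value that rests on root signals mostly below background.

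No difference of the 6 genes between hma2 hma4 and WT shoots was detectable, and the intervals were narrower than under Zn deficiency. Mean signals in mutant and WT shoots were 18993 ± 3231 and 19119.6 ± 489 for RCA, 12794 ± 1344 and 12961 ± 798 for SBPASE, and 16797 ± 2243 and 16269.5 ± 108 for PRK (SD, n = 2 in each). Those of the others were 14671 ± 2018 and 14717 ± 193 for PSAN, 19595 ± 2856 and 19804 ± 179 for PSAE1, and 24455 ± 3102 and 23783 ± 3073 for LHCB4.1. The SD of the signal was larger in the mutant than in the WT for 6 of 6 genes, replicate 1 of the mutant was the higher for each, and the mutant arrays overlapped or enclosed those of the WT. All 6 genes were read on the same 2 mutant arrays, so these are not 6 separate observations. For LHCB4.1 the log2 gap between replicates was 0.259 in the mutant and 0.264 in the WT.

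The log2 changes in hma2 hma4 shoots ran from -0.02 to 0.04, and the lowest and highest bounds of their 95% intervals were -0.32 and 0.33. The limma adjusted p lay between 0.965 and 0.989, and 0 of 6 genes were called, where 0.299% of all probe sets were. The interval of SBPASE, from -0.30 to 0.25, does not reach the -0.89 measured for it under Zn deficiency but overlaps the 95% interval of that change. Both responses were compared in 1 fit of all 16 arrays, where the difference, Zn deficiency minus hma2 hma4, was -0.87 for SBPASE (SE 0.337, limma adjusted p = 0.260) and -0.70 for PRK (SE 0.267, limma adjusted p = 0.254). The other 4 genes had differences from -0.43 to -0.27 with adjusted p of at least 0.609, so 0 of 6 were called, where 0.58% of all probe sets were. Of the 16 other photosynthesis genes, 0 were called in mutant shoots, with changes from -0.12 to 0.15.

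In hma2 hma4 roots all 6 genes had changes below 0, as 51.3% of all probe sets did, and 0 of 6 were called, where 0.00586% of all were. PSAE1 had a mean of 404 ± 24.2 against 516 ± 47.6 in WT roots (SD, n = 2) and a change of -0.34 (SE 0.131, 95% interval -0.64 to -0.05, limma adjusted p = 0.9995, unadjusted p = 0.0244). SBPASE and PRK each had a change of -0.19, PSAN of -0.14, RCA of -0.04 and LHCB4.1 of -0.01. The mutant arrays lay below the WT arrays for 4 genes, SBPASE, PRK, PSAN and PSAE1, and for 17.6% of all probe sets. The interaction with tissue passed for 0 of the 6 genes, with 0.0469% of all called. Among the 16 other photosynthesis genes 12 had changes above 0 in mutant roots, as 48.7% of all probe sets did, with a median of 0.04.

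Every one of the 6 genes was far lower in roots than in shoots in all 4 pairs of groups. In the 7-week control plants the difference was -6.91 for RCA (SE 0.220), -6.99 for SBPASE (SE 0.313) and -6.78 for LHCB4.1 (SE 0.445), with limma adjusted p from 2.16e-07 to 4.93e-06. Because their root signals were below background, the fold can only be bounded for the others: PRK was at least 239-fold, PSAN at least 284-fold and PSAE1 at least 378-fold lower in roots. In Zn-deficient plants the difference was -6.51 for RCA, -5.97 for SBPASE, -7.39 for PSAN and -6.38 for LHCB4.1, while PRK was at least 152-fold and PSAE1 at least 308-fold lower. The 6 of 6 genes called lower compare with 19.8% of all probe sets in control and 18.4% in Zn-deficient plants.

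The gap between the tissues was smaller on the 21-day arrays for 5 genes and, for SBPASE, differed by less than the test could call. In the WT it was -5.80 for RCA (SE 0.137), -6.50 for SBPASE (SE 0.125) and -6.53 for PRK (SE 0.134). It was -6.11 for PSAN (SE 0.125), -5.24 for PSAE1 (SE 0.131) and -4.93 for LHCB4.1 (SE 0.133), with limma adjusted p of at most 3.39e-10. In hma2 hma4 the values lay between -6.75 for PRK and -4.98 for LHCB4.1, all past the threshold. Again 6 of 6 were called lower, where 21.6% of all probe sets were in either genotype. The median over all probe sets was 0.35, 0.36, 0.28 and 0.30 in the 4 pairs, and -0.07, -0.08, 0.05 and 0.02 under median centring. The members lay below the former by more than they lay below 0, and 6 of 6 stayed called under both other scalings.

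In roots, all 6 genes had higher signals in 21-day than in 7-week WT plants, and all 6 passed the test. RCA rose by 1.22 (SE 0.171, limma adjusted p = 0.000200), SBPASE by 0.97 (SE 0.238, limma adjusted p = 0.00833) and LHCB4.1 by 1.81 (SE 0.353, limma adjusted p = 0.00207). The rise of LHCB4.1 was 1.12 without 7-week control root replicate 1 (limma adjusted p = 0.0227) and 2.50 without replicate 2 (0.000200). The others came from below background: PRK was at least 3.23-fold, PSAN at least 3.94-fold and PSAE1 at least 9.86-fold higher in 21-day roots (limma adjusted p of 2.33e-05, 1.50e-05 and 7.43e-08). The 6 of 6 genes called higher compare with 15.7% of all probe sets, whose median change was 0.03. Age, agar or hydroponic culture and experiment cannot be told apart in this comparison. The actin signal was 1.74-fold to 8.57-fold higher at the 3' end on the 7-week arrays and 17.3-fold to 30.3-fold on the 21-day arrays. Signals of the 25S rRNA control ranged from 31.0 to 450 on the former and from 1613 to 6920 on the latter. The part of both in the result was not tested.

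Of the 16 other photosynthesis genes, 11 were called higher and 2 called lower in 21-day roots, against 15.7% and 13.6% of all probe sets. PSBW, a small subunit of photosystem II, was at least 10.2-fold and PORB, a light-dependent enzyme of chlorophyll synthesis, at least 6.86-fold higher than in 7-week roots. GLYK, the glycerate kinase that closes the photorespiratory cycle, fell by 1.73 and GSA1, an early enzyme of tetrapyrrole synthesis, fell by 0.72 on the log2 scale (limma adjusted p of 0.000102 and 0.00343). The root markers EXPA7 and EXPA18 had changes of 0.41 and 0.26 (limma adjusted p of 0.588 and 0.723), and FAMA one of -0.32 (0.584). FAMA, the one leaf marker, had signals of 60.0 and 42.7 in 7-week control roots, 1 of them above background. In 21-day wild-type roots its signals were 43.0 and 35.7, both below it.

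The size of the rise could not be set between the Calvin cycle genes and the photosystem and antenna genes, because PRK, PSAN and PSAE1 were below background in 7-week control roots. The fitted mean changes were 1.32 for the former and 3.14 for the latter, a difference of -1.82 that was -2.23 with 1 signal unit added and -1.15 with 58. Among the genes above background in both groups, LHCB4.1 was the one photosystem or antenna gene. The call of SBPASE was lost without 7-week control root replicate 1 (0.89, limma adjusted p = 0.0616) or without 21-day wild-type root replicate 1 (0.93, limma adjusted p = 0.0625).

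In shoots the difference between 21-day and 7-week WT plants was small, with the same 7-week control arrays as in the comparison of Zn deficiency, and 0 of 6 genes were called, where 45.4% of all probe sets were. SBPASE had a change of 0.49 (SE 0.238, 95% interval -0.02 to 1.00, limma adjusted p = 0.111) and PRK one of 0.38 (SE 0.189, -0.02 to 0.79, limma adjusted p = 0.115). RCA had 0.11, PSAE1 0.00, PSAN -0.01 and LHCB4.1 -0.04, and under median centring of the arrays the sign of RCA turned to -0.18 and that of PSAE1 to -0.29, while SBPASE had 0.19 and PRK 0.0889. Both 21-day arrays lay above both 7-week control arrays for 3 of 6 genes, a share near the 41.5% of all probe sets. These were the 3 Calvin cycle genes, and under median centring this no longer held for RCA, whose change was then -0.18. The mean change was 0.33 for the Calvin cycle genes and -0.01 for the others, and the difference of 0.34 exceeded its SD between replicates of 0.0781. The array scores, Calvin cycle minus photosystem, were 0.22 and 0.27 in 21-day wild-type against -0.02 and -0.17 in 7-week control shoots, without overlap. SBPASE alone was called when 7-week control shoot replicate 1 was left out (0.82, limma adjusted p = 0.0230), and its change was 0.16 without replicate 2 (limma adjusted p = 0.647).

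**Figure D5:**
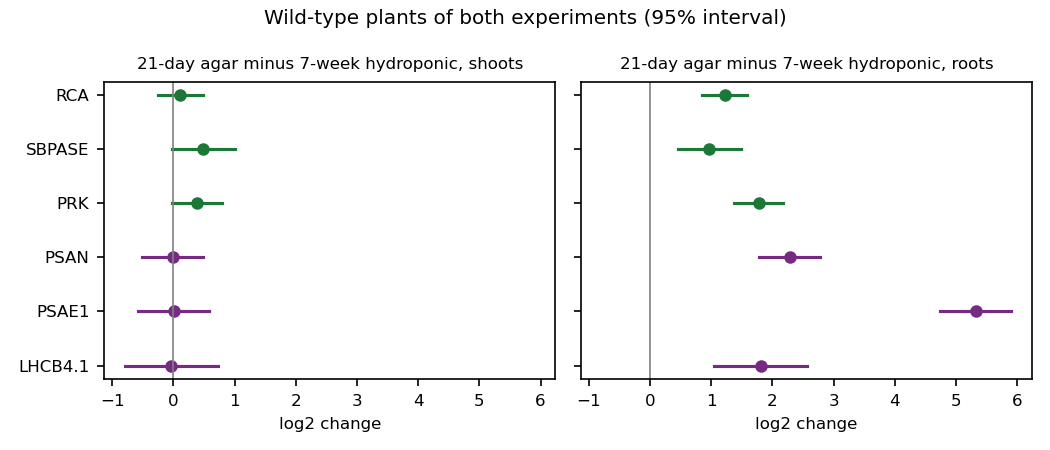
Log2 changes of the 6 genes from 7-week hydroponic to 21-day agar-grown WT plants (x axis, points, with 95% intervals as bars) in shoots and in roots; Calvin cycle genes are green and photosystem and antenna genes purple. Shoot changes lie between -0.04 and 0.49, and root changes between 0.97 for SBPASE and 5.32 for PSAE1; the root values of PRK, PSAN and PSAE1 depend on the 8 units added to signals below background.

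The order of the 8 groups by mean signal was the same in outline for each gene. The 4 shoot groups stood above the 4 root groups, 7-week Zn-deficient shoots were the lowest shoot group, and 21-day wild-type roots the highest root group for 6 of 6 genes. The share of all probe sets with that order was not counted. The arrays of 21-day wild-type and hma2 hma4 roots overlapped for RCA, with means of 335.9 and 328.3, and for LHCB4.1, with means of 767.0 and 763.0. In shoots the highest mean belonged to 21-day wild-type shoots for RCA, SBPASE and PSAE1, to hma2 hma4 shoots for PRK and LHCB4.1, and to 7-week control shoots for PSAN. For PSAN and PSAE1, all neighbouring shoot groups in that order overlapped in their arrays. For SBPASE and PRK, the 7-week control and Zn-deficient shoots were apart from their neighbours, and only the 21-day WT and mutant shoots overlapped. At the bottom of the order, the 7-week control and Zn-deficient roots overlapped for RCA, SBPASE, PSAE1 and LHCB4.1.

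Across the 4 shoot groups the centred profiles of the photosystem and antenna genes were close to each other, with root-mean-square differences between group means of 0.03 to 0.09 on the log2 scale over the 3 pairs. Pairs of Calvin cycle genes differed by 0.13 to 0.38, with SBPASE and PRK the closest of them. RCA, though a Calvin cycle gene, differed from the photosystem and antenna genes by only 0.05 to 0.09 and from SBPASE by 0.38. In roots PSAE1, with all its 7-week signals below background, differed from the other 5 genes by 1.57 to 2.12. These are descriptions over 4 group means that share arrays and scaling.

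Among 3086 probe sets with 1 gene and a mean signal of 1000 or more in at least 1 group, which shoots alone could supply, the closest to each member was taken by its centred profile over all 8 groups. RCA was closest to CaS, a thylakoid calcium-sensing protein (root-mean-square difference 0.22), which was also the closest to SBPASE (0.30). PRK was closest to PSAN (0.31), PSAN to PSBY, a small photosystem II protein (0.20), and LHCB4.1 to AT3G47650 (0.19) and to ATPC1, the gamma subunit of the chloroplast ATP synthase (0.20). The closest to PSAE1 was PETM, a small subunit of the cytochrome b6f complex, at a wider 0.67. PRK, PSAN and PSAE1 were below background in 7-week control roots, so their distances depend in part on the 8 units added.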

How the data were processed

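The deposited table holds log2 values of MAS5 signals, per the submitters' processing notes, which name no version. The authors had scaled each array to a mean of 500 after trimming 2% at each end, as the values show. Signals were recovered as powers of 2, 8 units (about the 10th percentile of all values) were added, and log2 was taken again. This shrinks the changes of dim genes against the log2 of the signal itself. A change from below background still includes differences within background. That of PSAE1 in 21-day against 7-week roots was 5.32, and 3.30 with signals floored at background. The 64 control probe sets and probe sets with a mean signal under the 25th percentile were left out, which left 17059. Tests used limma 3.58.1 under R 4.3.3, with lmFit on group means and eBayes with its intensity trend, in 1 fit of 8 arrays per experiment and 1 of all 16 arrays between experiments, with Benjamini-Hochberg adjustment over all probe sets and a threshold of 0.05. The fit was tested on simulated data. A group with no array above 52.2, which the 3 Trpn controls did not exceed on any array, counted as below background, and a fold against it is the other group's geometric mean signal over that level. Of 13513 probe sets with 1 gene in the platform annotation, 13436 matched the RefSeq TAIR10.1 table, used for names and chromosomes only. Named genes were the 6 members, list genes with a probe set of their own (of long lists, those called or the largest change each way) and, per member, the 3 probe sets with the most similar centred log2 group means among those whose mean reached 1000 in at least 1 group. Members and lists were chosen with earlier results of these data known. Alternatives were quantile normalization, median centring, 1 or 58 units added, no filter or the 50th percentile, other eBayes settings, other sets of arrays in the fit, array weights, a replicate block and each array left out; signals floored at background, and the difference between ages in the tissue gap, were added after seeing the data.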

Additional observations from a re-analysis of the deposited data

Results flagged for a closer look

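The gap between roots and shoots differed between 21-day and 7-week WT plants for 5 of the 6 genes when the difference itself was tested as an interaction in 1 fit of all 16 arrays. This test was added after the data had been seen, and it called 10.6% of all probe sets in the same direction. The root signal stood closer to the shoot signal at 21 days by 1.11 on the log2 scale for RCA (SE 0.242, limma adjusted p = 0.00654), by 1.39 for PRK (SE 0.267, limma adjusted p = 0.00330) and by 2.29 for PSAN (SE 0.326, limma adjusted p = 0.000518). It did so by 5.32 for PSAE1 (SE 0.383, limma adjusted p = 2.57e-06), and PRK, PSAN and PSAE1 had all their 7-week control root signals below background, so that the size of their values depends on the 8 units added. With signals below background set to that level the values were 1.31 for PRK, 1.99 for PSAN and 3.30 for PSAE1 (limma adjusted p of 0.00231, 0.000559 and 1.06e-06). For LHCB4.1 it was 1.85 (SE 0.500, limma adjusted p = 0.0184), and the call was lost without 7-week control root replicate 1 (1.16, adjusted p = 0.0630), 21-day wild-type shoot replicate 2 (1.72, 0.0661), 21-day wild-type root replicate 1 (1.87, 0.0540) or replicate 2 (1.82, 0.0565). SBPASE had 0.48 (limma adjusted p = 0.310) and did not pass. The median over all probe sets was -0.14. Age, culture and experiment cannot be told apart in this difference.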

How the results depend on the processing

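The 6 of 6 calls of roots against shoots held in all 4 pairs under every alternative run and with each array left out. The count stayed at 0 of 6 for Zn deficiency in roots, for hma2 hma4 in both tissues, for both interactions with tissue and for Zn deficiency against hma2 hma4. In Zn-deficient shoots it was 2 in 1 fit of all 16 arrays, where 1440 of 17059 probe sets were called, and 0 otherwise. With 1 array left out it was 0 to 1 for 21-day against 7-week WT shoots, 5 to 6 for roots and 4 to 5 for the gap between tissues. The mean change of the Calvin cycle minus that of the photosystem genes in 21-day against 7-week roots was -2.23 with 1 unit added and -1.15 with 58, where 3 of the 6 genes lay below background in 7-week roots. Leaving out 1 array moved that difference from -2.12 to -1.51, the one in 21-day against 7-week shoots from 0.27 to 0.42, and the one for Zn deficiency from -0.64 to 0.04 in shoots and -0.66 to -0.05 in roots.

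Of 1054 member changes under other settings 12 changed sign, none of them called, and the cause was not tested. With median centring these were, in hma2 hma4 shoots, RCA (0.0357), SBPASE (0.0342), PSAN (0.0443) and PSAE1 (0.0326), in hma2 hma4 roots LHCB4.1 (0.0032), and in 21-day against 7-week shoots RCA (-0.18) and PSAE1 (-0.29). With quantile normalization they were PSAN in hma2 hma4 shoots (0.0059), LHCB4.1 in hma2 hma4 roots (0.0116), RCA in the hma2 hma4 by tissue interaction (-0.0115), and PSAN (0.16) and LHCB4.1 (0.0326) in 21-day against 7-week shoots. With 1 array left out, 33 of 432 changed sign, all of them uncalled. For Zn deficiency in roots the changes then ranged from -0.0619 to 0.19 for RCA, -0.23 to 0.61 for PSAE1 and -0.52 to 0.85 for LHCB4.1. For hma2 hma4 in shoots they ranged from -0.19 to 0.15 for RCA, -0.13 to 0.0859 for SBPASE, -0.0970 to 0.18 for PRK, -0.15 to 0.13 for PSAN, -0.17 to 0.13 for PSAE1 and -0.0917 to 0.17 for LHCB4.1, and in roots from -0.14 to 0.0714 for RCA and -0.0347 to 0.0197 for LHCB4.1. The interaction with tissue ranged from -1.09 to 0.28 for LHCB4.1 under Zn deficiency, and in hma2 hma4 from -0.16 to 0.19 for RCA, -0.0129 to 0.27 for PSAN and -0.0842 to 0.18 for LHCB4.1. In 21-day against 7-week shoots the range was -0.12 to 0.10 for PSAN, -0.0119 to 0.0213 for PSAE1 and -0.17 to 0.0943 for LHCB4.1.

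No label says that replicate numbers pair the arrays, and differences between replicates 2 and 1 correlated between groups with r from -0.107 to 0.155. With the replicate number as a block, 0 of the member calls changed, while all calls in Zn-deficient shoots went from 157 to 281 and in hma2 hma4 shoots from 51 to 68. Over all probe sets tested, the alternatives gave 14 to 1440 calls for Zn deficiency in shoots, 12 to 33 in roots, 12 to 179 for hma2 hma4 in shoots, 0 to 6 in roots and 2 to 776 for Zn deficiency against hma2 hma4. Median centring turned the calls higher and lower in roots from 5975 and 3383 to 4248 and 4538 in 7-week control, from 5527 and 3147 to 3591 and 4269 in Zn-deficient, from 6733 and 3692 to 4858 and 4414 in 21-day WT and from 6786 and 3687 to 4640 and 4611 in hma2 hma4 plants. It turned those in 21-day against 7-week shoots from 4617 and 3131 to 3444 and 4604, and those of Zn deficiency against hma2 hma4 from 68 and 31 to 52 and 43. Signals near or below background limit every statement on 7-week roots.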
